A study of Capra hircus with 3 samples.

Results

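The miR-200 family was followed through the hair cycle in the skin of a cashmere goat. The family has 5 members, miR-200a, miR-200b, miR-200c, miR-141 and miR-429. Its reads were found as tags, meaning distinct small RNA sequences with their read counts, that share their first 18 nt with a tag that the study lists for 1 of the 5 precursors. The 3p arms of miR-200a, miR-200b and miR-200c had no tag in the copy of that list used here, and the start of each was taken from the tags themselves by its pairing with the listed 5p arm of the same name. In total 553 of the 4043974 distinct tags belonged to the family. They made up 11 of the 468 arms or loop fragments counted, namely 5 3p arms, 4 5p arms and 2 fragments of the hairpin loops.

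Small RNA was sequenced from skin of the Shanbei White cashmere goat at anagen, catagen and telogen, the growing, regressing and resting stages of the hair cycle. Each stage was represented by 1 library made from the mixed skin of 10 adult goats of both sexes, cut from the side of the body. The labels name no treatment. The anagen library held 15997828 clean reads, the catagen library 18111912 and the telogen library 27016012. With 1 library per stage there was no replicate check, so every interval below covers counting error only and every test compares 2 libraries, not 2 stages.

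The miR-200 family is a textbook marker of epithelial cells. Its members repress ZEB1 and ZEB2, transcription factors that shut down E-cadherin, and in skin they are known from the epidermis and the hair follicle epithelium rather than from the dermis. A miRNA finds its targets through its seed, bases 2 to 8 counted from the 5′ end. The hairpin is cut into a 5p and a 3p arm, and for this family the 3p arm is the one that is usually loaded and kept.

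The most abundant tag of each 3p arm is shown first, because these 5 sequences set which targets the family can read and how far the members can be told apart. The seed is in capitals, and T stands for U.
miR-200a-3p: tAACACTGtctggtaacgatgtt
miR-141-3p: tAACACTGtctggtaaagatgg
miR-200b-3p: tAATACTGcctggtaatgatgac
miR-200c-3p: tAATACTGccgggtaatgatgga
miR-429-3p: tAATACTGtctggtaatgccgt

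The family therefore fell into 2 seed groups. miR-200a-3p and miR-141-3p shared 1 seed, and miR-200b-3p, miR-200c-3p and miR-429-3p shared the other. Every difference between the groups within the seed was the single change C4T, read from miR-200a-3p to a member of the other group and counted from the 5′ end. The seed groups cut across the gene clusters. In the RefSeq annotation of the goat genome, build ARS1.2, MIR429, MIR200A and MIR200B were neighbours with no other gene between them, and so were MIR141 and MIR200C, within 10000 bases in both cases. The tags themselves carry no coordinates, so the gene order rests on this annotation alone, and no positions are given.

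The 5p arms carried other seeds and were rare, apart from that of miR-200b. Their most abundant tags are given with bases 2 to 8 in capitals.
miR-200b-5p: cATCTTACtgggcagcattgg
miR-200a-5p: cATCTTACcggacagtgct
miR-200c-5p: cGTCTTACccagcagtgtttgg
miR-141-5p: cATCTTCCagcacagtgttgga

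Some pairs of members differed by 1 base in the first 18, so a misread base could have moved a tag from 1 member to the other. The later bases of the tags were used to check this. miR-429-3p differed from miR-200b-3p by T9C alone, and at base 19 its own base stood in 99.4, 99.5 and 99.6% of its reads in anagen, catagen and telogen. miR-200c-3p differed from miR-200b-3p by G11T alone, and at base 22 its own base stood in 99.1, 99.0 and 98.8% of the reads that reached it. miR-141-3p differed from miR-200a-3p by A17C alone and was the least certain. Of its 89, 130 and 169 reads that reached base 22, 88.8, 93.1 and 94.1% had its own base there, and 5.62, 1.54 and 1.78% had the base of miR-200a-3p. The reads of the family members were thus distinct at these later bases, with a small uncertain part for miR-141-3p.

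All levels are reads per 1000000 clean reads (RPM). The whole family had 847 RPM for anagen (95% Poisson interval 833 to 862), 829 for catagen (816 to 842) and 944 for telogen (932 to 955). These were 13553, 15014 and 25496 reads, or 0.188, 0.184 and 0.260% of the reads on all arms counted. These percentages are too high, because the list behind the arms was a shortened copy and missing starts were added for this family only. The counted arm of let-7g, for example, had 2, 8 and 28 reads, while the paper has let-7g among its most abundant miRNAs. The total of telogen was above both others beyond counting error, and the intervals of anagen and catagen overlapped. The 3p arms held 95.9, 94.8 and 95.6% of the family's reads.

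miR-200a-3p, of the AACACTG seed, was the most abundant member in all 3 libraries by tags that start at base 1. With the other starts described below counted too, miR-200b-3p had more reads, at 5866, 6606 and 9278 beside 5669, 5358 and 8563. The 5373 anagen reads, 5103 catagen reads and 8269 telogen reads of miR-200a-3p from base 1 came to 336, 282 and 306 RPM. It was highest in anagen and lowest in catagen, and 750, 107 and 767 of these reads were tags of only 18 to 20 nt. Among the arms counted, which lack the main arms of some abundant miRNAs, it ranked 28, 39 and 34.

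miR-200b-3p, its neighbour in the gene cluster but of the other seed, was level. It had 4271, 4743 and 6929 reads, which is 267 RPM for anagen (259 to 275), 262 for catagen (254 to 269) and 256 for telogen (250 to 263). All 3 intervals overlapped.

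miR-200c-3p, from the other cluster, was the 3p arm whose level moved most. Its 2520 anagen reads, 3487 catagen reads and 7502 telogen reads came to 158 RPM (151 to 164), 193 (186 to 199) and 278 (271 to 284). The 3 intervals did not overlap. By tags from base 1, it stood below miR-200b-3p in anagen and catagen and above it in telogen. With the other starts counted too, miR-200c-3p stood below miR-200b-3p in all 3 libraries, with 7575 beside 9278 reads in telogen.

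The remaining 3p arms were lower. miR-429-3p, the third gene of the miR-200b cluster, had 42.0 RPM for anagen (38.9 to 45.3), 40.6 for catagen (37.8 to 43.7) and 52.2 for telogen (49.5 to 55.0), so that telogen was above the others. miR-141-3p, the partner of miR-200c, had 158, 171 and 264 reads, which is 9.88, 9.44 and 9.77 RPM, with overlapping intervals.

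Of the 5p arms, miR-200b-5p had 532, 743 and 1082 reads, which is 33.3 RPM for anagen (30.5 to 36.2), 41.0 for catagen (38.1 to 44.1) and 40.1 for telogen (37.7 to 42.5). It was lowest in anagen. miR-200a-5p had 22, 21 and 17 reads, which is 1.38, 1.16 and 0.629 RPM. miR-200c-5p had 2, 5 and 18 reads, the last of which is 0.666 RPM (0.395 to 1.05), and miR-141-5p had 1, 2 and 4. The counts of miR-141-5p are close to the 3 reads that a count of 0 allows, which correspond to 0.188, 0.166 and 0.111 RPM. The mir-141 loop was read 2, 1 and 2 times, and the loop side of mir-429 was read 2 times in catagen and not in the other libraries. No 5p arm of miR-429 was counted.

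**Figure D1:**
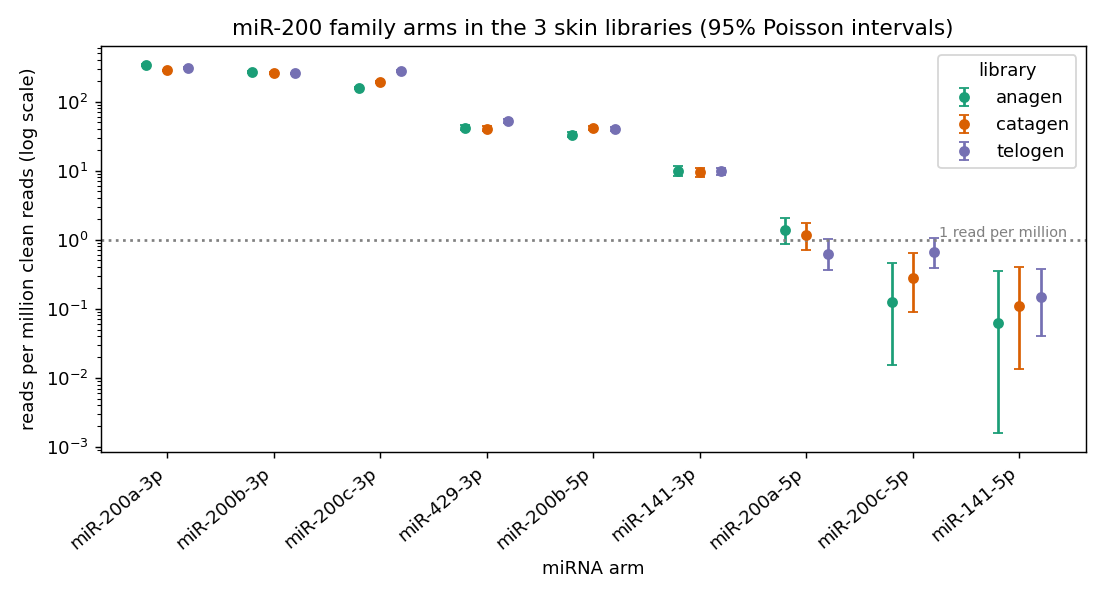
Level of each family arm in the anagen, catagen and telogen libraries, in RPM on a log axis, with 95% Poisson intervals as bars. Points are single libraries. miR-200c-3p goes from 158 to 193 to 278 RPM, while miR-200b-3p stays between 256 and 267.

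The libraries were compared in 3 pairs. A difference was called when the log2 ratio of RPM was above 1 in size and p was under 0.01 in the exact test of Audic and Claverie, over arms with at least 1 RPM in either library. Of the 7 family arms tested, 0 were called in any pair. Over all arms tested the call was made for 27.4% in catagen over anagen, 24.1% in telogen over anagen and 12.7% in telogen over catagen. These are 80 of 292, 70 of 290 and 37 of 291 arms. The median log2 ratio of the family arms was -0.05, -0.02 and 0.05 in the 3 pairs, beside 0.42, 0.31 and -0.10 over all arms.

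For the family total the log2 ratio was -0.03 in catagen over anagen (95% exact interval -0.06 to 0.00), 0.16 in telogen over anagen (0.13 to 0.19) and 0.19 in telogen over catagen (0.16 to 0.22). Under the alternatives the first ran from -0.46 to 0.23. The second turned to -0.11 under size factors from the median of ratios and to -0.26 under TMM factors. Under these factors the median over all arms was 0.04 and -0.11 in place of 0.31. Telogen over catagen kept its direction under every scaling tried, from 0.19 to 0.50.

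For miR-200c-3p the log2 ratio was 0.29 in catagen over anagen (0.22 to 0.36), 0.82 in telogen over anagen (0.75 to 0.88) and 0.53 in telogen over catagen (0.47 to 0.59). The telogen level was thus 1.76-fold the anagen level (1.68 to 1.84). Its ratio of telogen over anagen exceeded that of 209 of 290 arms, and that of telogen over catagen exceeded 254 of 291. Telogen was above anagen under every scaling, by 0.40 under TMM factors and 0.55 under size factors, and the ratio passed the fold limit at 1.13 when scaled to the reads of all miRNA arms. The ratio of catagen over anagen turned to -0.10 under size factors and to -0.14 under TMM factors. Its 5p arm had 2 reads in anagen and 18 in telogen, under 1 RPM in both libraries, and so was not among the arms tested. The telogen level of this 5p arm was 5.33 times that of anagen, with an interval from 1.28 to 47.4.

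Of the other 3p arms, miR-200a-3p had log2 ratios of -0.25 in catagen over anagen (-0.31 to -0.20), -0.13 in telogen over anagen (-0.18 to -0.08) and 0.12 in telogen over catagen (0.07 to 0.17). Telogen over anagen turned to 0.18 when scaled to the reads of all arms, and catagen over anagen to 0.01 when the skeletal muscle list was left out of that scaling. With tags of 21 nt or longer alone, its ratios were -0.07 (-0.13 to -0.01), -0.06 (-0.11 to 0.00) and 0.01 (-0.04 to 0.06), and with its most abundant tag alone -0.02, -0.07 and -0.05. miR-429-3p had -0.05, 0.31 (0.18 to 0.45) and 0.36 (0.23 to 0.49), the second turning to -0.10 under TMM factors. miR-200b-3p had -0.03, -0.06 (-0.11 to 0.00) and -0.03. The second turned to 0.26 when scaled to the reads of all arms and fell to -0.33 under size factors and -0.47 under TMM factors. With shifted starts counted it was -0.09 (-0.14 to -0.05). miR-141-3p had -0.06, -0.02 and 0.05 with intervals that held 0. miR-200b-5p had 0.30 (0.14 to 0.47), 0.27 (0.12 to 0.42) and -0.03, and both positive values turned negative under size factors or TMM factors, with intervals that then held 0. miR-200a-5p had -1.13 in telogen over anagen (-2.13 to -0.15), past the fold limit but not called, with p = 0.0143 in the exact test of Audic and Claverie. Of its 22, 21 and 17 reads, 20, 15 and 12 were only 18 to 20 nt long, and among tags of 21 nt or longer the ratio was 0.57.

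**Figure D2:**
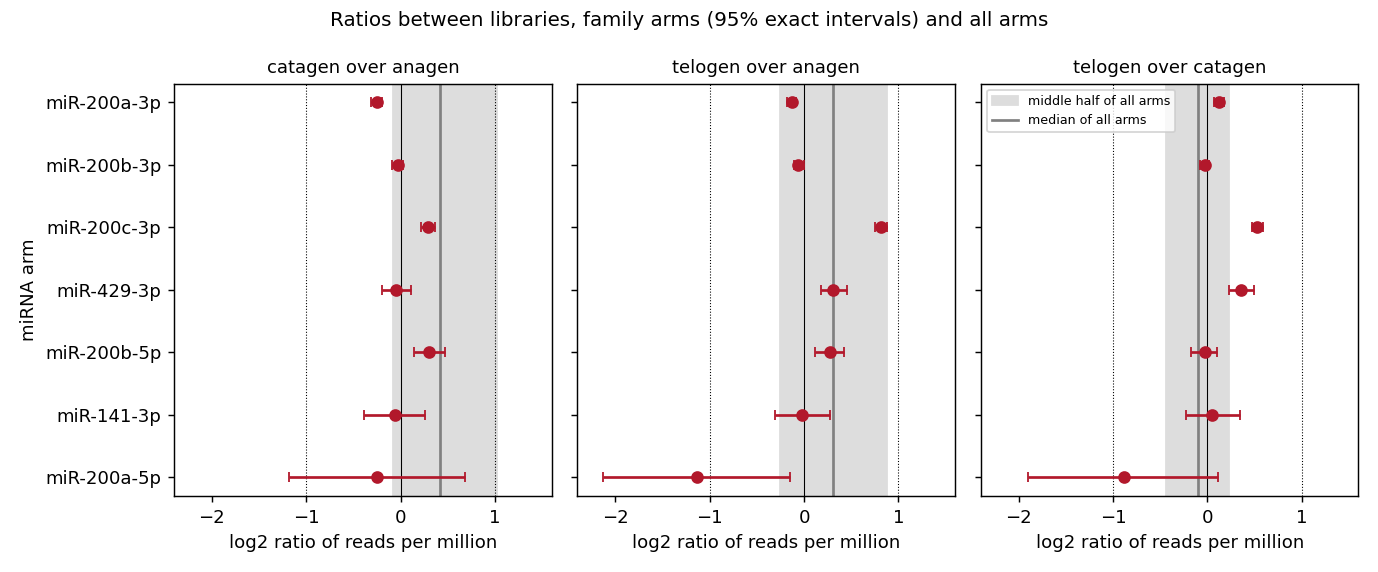
Log2 ratio of RPM for the 7 tested family arms in each pair of libraries, with 95% exact intervals as bars. The grey band and line give the middle 50% and the median of all arms tested, and dotted lines mark the fold limit of 2. miR-200c-3p stands at 0.82 in telogen over anagen and at 0.53 in telogen over catagen, and no arm both passes the limit and is called.

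The make-up of the family changed between the libraries, and this measure does not depend on how the libraries are scaled. Of the 12994, 14240 and 24373 3p reads, miR-200c-3p made up 19.4% for anagen (95% Clopper-Pearson interval 18.7 to 20.1), 24.5% for catagen (23.8 to 25.2) and 30.8% for telogen (30.2 to 31.4). miR-200a-3p made up 41.3% (40.5 to 42.2), 35.8% (35.0 to 36.6) and 33.9% (33.3 to 34.5). Both series of intervals were free of overlap. miR-200b-3p held 32.9, 33.3 and 28.4%, miR-429-3p held 5.17, 5.17 and 5.78%, and miR-141-3p held 1.22, 1.20 and 1.08%.

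Summed by seed, the reads with the AATACTG seed of miR-200b, miR-200c and miR-429 made up 57.4% of the 3p reads for anagen (56.6 to 58.3), 63.0% for catagen (62.2 to 63.8) and 65.0% for telogen (64.4 to 65.6). Summed by gene cluster, the 3p reads of miR-200b, miR-200a and miR-429 made up 79.4% for anagen (78.7 to 80.1), 74.3% for catagen (73.6 to 75.0) and 68.1% for telogen (67.5 to 68.7). The share of the AATACTG seed was thus highest in telogen, and the share of the cluster of miR-200b was highest in anagen.

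**Figure D3:**
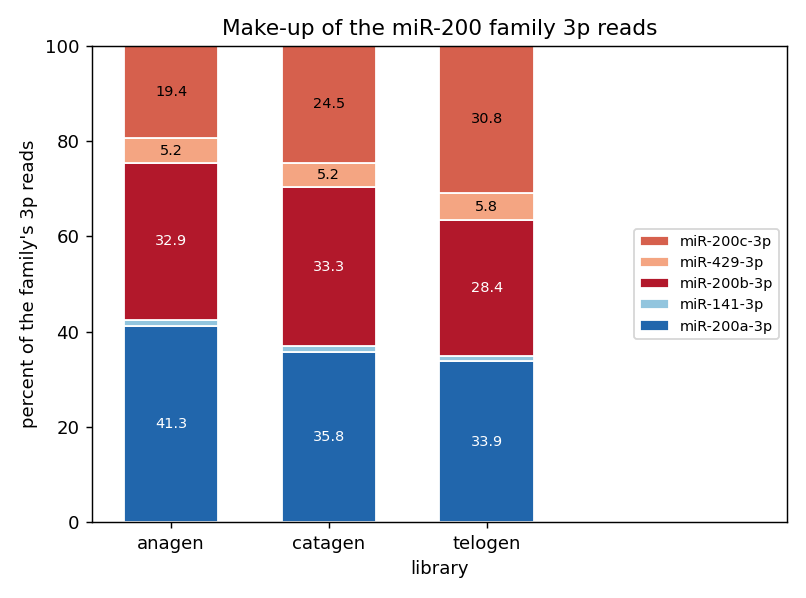
Share of each member in the 3p reads of the family, in percent, for the anagen, catagen and telogen libraries. Red shades are members with the AATACTG seed and blue shades those with the AACACTG seed. The share of miR-200c-3p is 19.4, 24.5 and 30.8%, and that of miR-200a-3p is 41.3, 35.8 and 33.9%.

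The partners of 1 cluster were far from equal in reads. miR-141-3p made up 5.90% of the reads of miR-141-3p and miR-200c-3p for anagen (5.04 to 6.86), 4.67% for catagen (4.01 to 5.41) and 3.40% for telogen (3.01 to 3.83). The 5p and 3p arms of 1 hairpin were also unequal, to degrees that differed between precursors. The 5p arm of miR-200b held 11.1% of the reads of its precursor for anagen (10.2 to 12.0), 13.5% for catagen (12.6 to 14.5) and 13.5% for telogen (12.8 to 14.3). The 5p arm held 0.408, 0.410 and 0.205% for miR-200a, 0.0793, 0.143 and 0.239% for miR-200c, and 0.629, 1.16 and 1.49% for miR-141.

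The label of the family names the skin epithelium, and these libraries hold whole skin, so the reads cannot be placed in a cell type. Fewer epithelial cells and fewer molecules per cell cannot be told apart. Of 6 other miRNAs listed for epithelium or keratinocytes, 5 were held by the list of tags, with a summed level of 1224, 1971 and 2064 RPM. miR-205, a keratinocyte miRNA, made up most of this at 1005, 1794 and 1876 RPM. Its level in catagen was thus well above that in anagen, where the miR-200 total differed by a log2 ratio of -0.03. miR-31 had 8.31, 16.8 and 27.4 RPM, miR-182 had 44.4, 42.2 and 47.7, miR-96 had 7.63, 9.00 and 11.5, and miR-183 had 159, 109 and 102. Epithelial markers other than the miR-200 family thus did not move as 1 group. miR-203 was not analysed here.

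Among markers of other tissues, those of skeletal muscle differed most between the same libraries. The 4 skeletal muscle miRNAs summed to 4117, 78789 and 21405 RPM, and miR-1 alone had 3898, 73849 and 20001. The list for fibroblasts and other mesenchyme, of which 3 of 5 were held, had 13725, 26140 and 19634 RPM, and the 3 red blood cell miRNAs had 1312, 2137 and 878. Leukocyte miRNAs, of which 3 of 4 were held, had 131, 183 and 223 RPM. The endothelial miR-126 had 38.9, 32.0 and 37.1, with log2 ratios of -0.28, -0.07 and 0.21 in the 3 pairs. The 2 smooth muscle miRNAs summed to 335, 123 and 123 RPM from listed starts alone, but they went opposite ways. miR-143 had 308, 83.3 and 87.9 RPM, and miR-145 had 26.6, 39.9 and 35.6. miR-143 has a more abundant start that this count leaves out, so neither its pattern nor the sum can be read here. The paper has miR-143 among its most abundant miRNAs at every stage. The liver miR-122 was not analysed here. The part of a different mix of tissues in the ratios of the miR-200 family was not tested, but leaving the skeletal muscle list out of the scaling moved the family total from -0.03 to 0.23 in catagen over anagen.

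Outside the family, the 3 arms with the most similar pair of ratios to the family total were sought among 109 arms with at least 1000 reads, by the distance on the log2 scale over catagen and telogen, each against anagen. The pattern rests on 3 libraries. The nearest was an arm of mir-411a, at 46.3, 45.2 and 51.9 RPM and a distance of 0.01. An arm of mir-182, which is also on the epithelial list, was at 44.3, 42.1 and 47.7 RPM and a distance of 0.06. An arm of mir-423 was at 1667, 1634 and 1762 RPM and a distance of 0.08.

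The tags of the family also varied at their ends, and this is where miR-200b-3p differed from the rest. A miRNA that begins 1 base later carries another seed. The most abundant tags that start at base 2 and base 3 of miR-200b-3p, and the one that starts at base 2 of miR-200a-3p, are shown with their own bases 2 to 8 in capitals.
miR-200b-3p from base 2: aATACTGCctggtaatgatgact
miR-200b-3p from base 3: aTACTGCCtggtaatgatgactt
miR-200a-3p from base 2: aACACTGTctggtaacgatgtta

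Of the 5866, 6606 and 9278 reads of miR-200b-3p at any of these starts, 27.2% began at base 2 or 3 for anagen (26.1 to 28.3), 28.2% for catagen (27.1 to 29.3) and 25.3% for telogen (24.4 to 26.2). Base 2 took 9.58, 11.1 and 12.0%, and base 3 took 17.6, 17.0 and 13.3%. The share at base 2 was lowest in anagen and that at base 3 lowest in telogen. These reads are not in the levels of miR-200b-3p above, which count base 1 alone. Arms with more than 1 listed start, such as miR-200b-5p and miR-429-3p, had a few reads from other starts in their levels.

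The other 3p arms began more uniformly. Reads from base 2 or 3 made up 5.19, 4.70 and 3.27% for miR-200a-3p, 2.05, 1.35 and 0.917% for miR-429-3p and 0.665, 0.142 and 0.0924% for miR-200c-3p. Of miR-141-3p they were 0 of 160 reads in anagen, which allows up to 2.28% by the Clopper-Pearson interval, 1 of 173 in catagen and 1 of 266 in telogen. miR-200c-3p, whose first 10 bases are those of miR-200b-3p, had the lowest point value of the 5 3p arms over the 3 libraries, at 0.212%. The interval of miR-141-3p, at 0.334% (0.0405 to 1.20), held this value. Over 112 arms with at least 1000 reads whose first listed base was their commonest start, the median share was 0.393%, and 10 arms passed 20%. miR-200b-3p stood at 26.7% over the 3 libraries, the rank of 6.

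**Figure D4:**
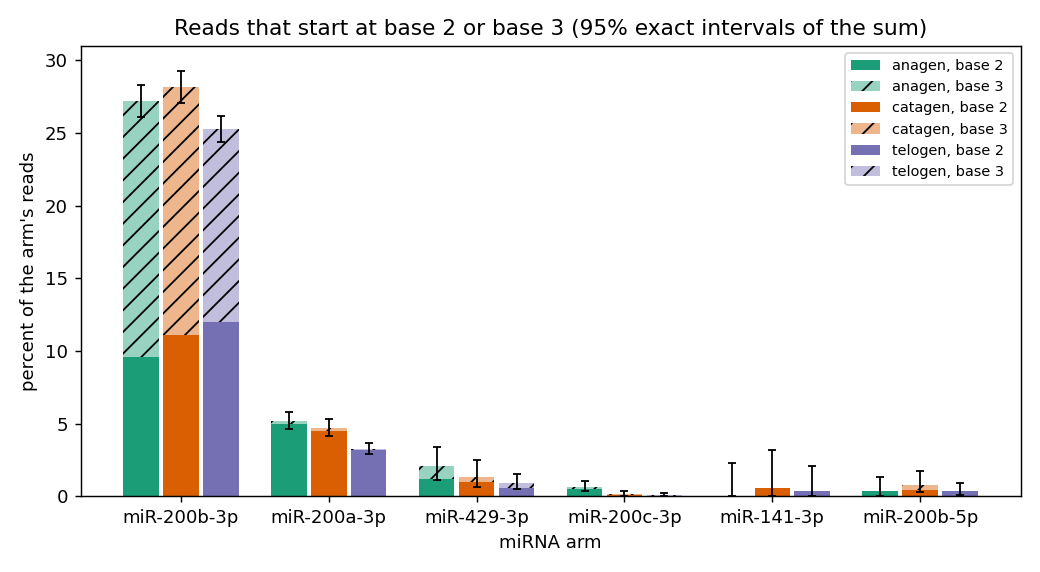
Share of reads that start at base 2 (solid) or base 3 (hatched) of each arm, in percent of its reads, for the anagen, catagen and telogen libraries, with 95% exact intervals of the sum. miR-200b-3p reaches 27.2, 28.2 and 25.3%, and miR-200a-3p, the next, 5.19, 4.70 and 3.27%.

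A start 1 base upstream was named where it had at least 10 reads. For miR-200c-3p and miR-200b-5p it was commoner than a start at base 2 or 3. It was read 21, 34 and 66 times for miR-200c-3p, which is 0.821, 0.964 and 0.871% of its reads. For miR-200b-5p it was read 8, 9 and 23 times, which is 1.21 to 2.13%, beside 0.370 to 0.804% from base 2 or 3, and for miR-200a-3p 2, 3 and 14 times. The most abundant such tag of each of the first pair is shown with its own bases 2 to 8 in capitals.
miR-200c-3p from 1 base upstream: cTAATACTgccgggtaatgatgg
miR-200b-5p from 1 base upstream: cCATCTTActgggcagcattgg

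The 3′ end of miR-200b-3p moved with its start. Tags from base 1 were spread over 22, 23 and 24 nt, with 21.5, 35.9 and 35.2% of the reads in anagen. Tags from base 2 were 23 nt long in 83.5, 90.5 and 91.5% of the reads in anagen, catagen and telogen, and so ended at base 24. Tags from base 3 were 23 nt long in 49.6, 65.2 and 59.1% and ended at base 25. The commonest shifted tags thus kept the length of 23 nt.

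The base at position 24 differed as well. In tags from base 1 that reached it, U made up 43.1, 43.8 and 44.5% and A made up 38.7, 39.3 and 40.5%. From base 2, U made up 63.1, 69.1 and 69.0% and A 19.8, 17.7 and 19.7%. From base 3, U made up 70.8, 70.0 and 68.7% and A between 7.95 and 8.56%. In miR-200b-3p the share of A at this base was thus lower the later a tag began, in all 3 libraries. In miR-200a-3p it was the other way round, with A in 19.3 to 20.1% of the tags from base 1 that reached base 24 and in 65.2, 55.9 and 60.6% of those from base 2. Which of these bases the hairpin holds was not examined, as no hairpin sequence was used here.

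The other arms had commonest lengths of their own. miR-200a-3p was 23 nt long in 52.4, 61.5 and 54.7% of its reads. miR-200c-3p was 23 nt in 44.9, 48.3 and 47.5% and 22 nt in 35.5, 35.5 and 37.7%. miR-429-3p was 22 nt in 47.0 to 51.5%, with a second length of 24 nt in 16.5, 21.9 and 22.7%. miR-200b-5p was 21 nt in 39.3, 46.2 and 48.4%. Base 23 of miR-200c-3p was U in 5.71, 6.48 and 10.9% of the reads that extended its main 22-nt tag, and A in 93.0, 93.3 and 88.9%.

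The share of short tags differed between the libraries for some members more than for others. Tags of 18 to 20 nt made up 14.0% of miR-200a-3p for anagen (13.0 to 14.9), 2.10% for catagen (1.72 to 2.53) and 9.28% for telogen (8.66 to 9.92). The median over arms with at least 1000 reads was 7.87, 2.20 and 3.43%, so catagen was lowest in both. Over the 5 family arms with that many reads, the share had a median of 6.40% for anagen (range 2.04 to 14.0), 1.48% for catagen (0.815 to 5.92) and 4.68% for telogen (1.62 to 9.28). miR-200b-3p was nearly level at 2.04, 1.48 and 1.62%, and miR-141-3p, with fewer reads, had 13.9, 10.5 and 9.85%. The clean reads exclude anything under 18 nt, which took 3.38, 2.66 and 0.566% of the high-quality reads. With tags of 21 nt or longer alone, the family total was 0.06 in catagen over anagen and 0.21 in telogen over anagen.

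A single base inside the seed of miR-200b-3p was often read differently. At base 5, counted from the 5′ end, G stood in place of A, the substitution A5G. The most abundant tag of this kind is shown, because it carries a seed that no family member has, with base 5 in capitals.
miR-200b-3p with A5G: taatGctgcctggtaatgatgac

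A5G was found in 149 of 4420 reads in anagen, which is 3.37% (2.86 to 3.95), in 194 of 4937 in catagen, which is 3.93% (3.40 to 4.51), and in 323 of 7252 in telogen, which is 4.45% (3.99 to 4.95). Its share was highest in telogen, with an interval that only just missed that of anagen, from 3.99 upwards against up to 3.95. Split by tag length, telogen was highest at 18 to 21 nt and at 23 nt, and catagen at 22 nt and at 24 nt or longer. Of the 52 single-base substitutions examined in bases 1 to 18 of this arm, the median was 0.0125% and the next largest, T14A, was 0.163%. At the same base the other changes, A5C and A5T, had 1 and 3 reads over the 3 libraries.

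The same change was rare in the other 3p arms. miR-200c-3p and miR-429-3p share the seed around it, and miR-200a-3p and miR-141-3p differ at base 4. A5G of miR-200c-3p was read in 0 of 2520, 0 of 3487 and 16 of 7518 reads, of which the last is 0.213%. In miR-429-3p it was read 0, 1 and 2 times and in miR-200a-3p 2, 0 and 14 times. A5C of miR-200c-3p was likewise read most in telogen, 1, 0 and 6 times. The part of such reads in the telogen share of miR-200b-3p was not tested. No read of miR-141-3p had it, with an upper limit of 2.31% in anagen. Over 522 A-to-G substitutions in 111 arms with at least 1000 reads, the median was 0.0155%, and A5G of miR-200b-3p had the largest share at 4.01%. The 4 others over 2% were chosen after their values were seen, and they were A1G of an arm of mir-2285e-2, A16G of mir-378, A6G of mir-411a and A17G of mir-2904-3.

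**Figure D5:**
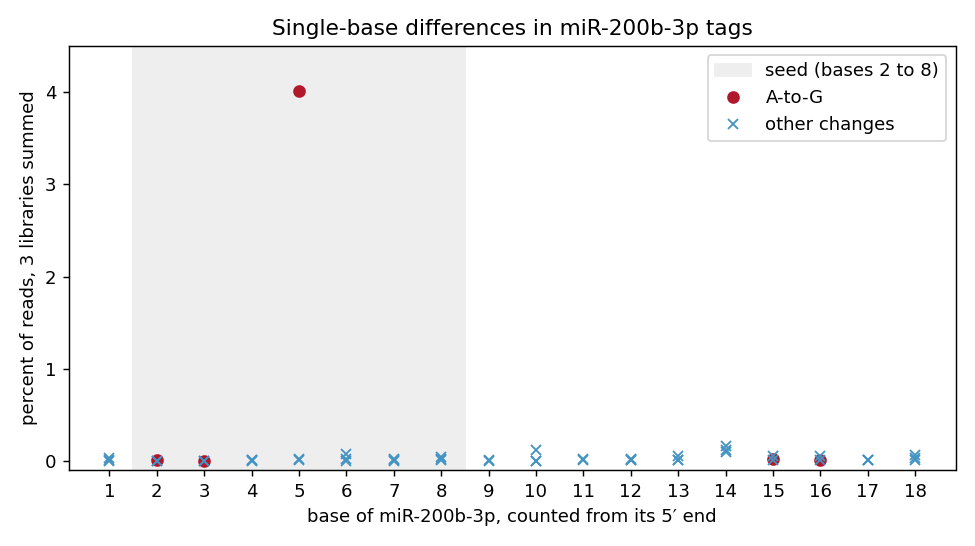
Share of reads with each single-base substitution in the first 18 bases of miR-200b-3p, in percent with the 3 libraries summed, by position from the 5′ end. Red points are A-to-G changes, blue crosses are the others, and the grey band is the seed. A5G stands at 4.01%, and the next largest substitution at 0.163%.

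Within miR-200b-3p the share of A5G differed with the ends of the tag. By length, it was 10.1, 6.50 and 12.7% in tags of 18 to 21 nt, 4.07, 5.08 and 4.99% at 22 nt, 3.58, 4.04 and 5.02% at 23 nt, and 1.57, 2.76 and 2.17% at 24 nt or longer. By start, it was 0.882, 1.08 and 1.33% from base 2 and 0.290, 0.442 and 0.884% from base 3. As a point value the share was thus highest in short tags from base 1 and lowest in tags from base 3, in all 3 libraries. Base 2 gave 5, 8 and 15 reads with G and base 3 gave 3, 5 and 11, with overlapping intervals in each library. The short-tag interval stood apart from those of longer tags in anagen and telogen. In catagen it overlapped those at 22 and 23 nt. Enzymes of the ADAR family turn adenosine in double-stranded RNA into inosine, which is sequenced as G. Whether these reads come from editing, from a variant in the goats pooled or from the sequencing was not tested. Tags with A5G are not in the levels above.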

How the data were processed

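Skin of 10 goats was mixed for each stage before RNA was isolated, and the small RNA of 18 to 30 nt was sequenced as 1 library. Before deposit, the authors took out reads of low quality, adaptors, poly(A) reads and those under 18 nt. They deposited read counts per distinct tag, not normalised, with a count of reads removed at each step. Depth was 15997828 (anagen), 18111912 (catagen) and 27016012 (telogen) clean reads, so that 3 reads equal 0.188, 0.166 and 0.111 RPM. Reads without molecular identifiers are not independent molecules, so intervals and floors cover counting error only.

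Tags were assigned by their first 18 nt to 468 arms, from the 2697 tags for 336 cattle precursors in a shortened copy of the study's annotation list. Of the 865 starts, 22 were listed for more than 1 precursor. For 3 family 3p arms with no listed tag, unlisted starts with at least 1000 reads and at most 2 mismatches to the listed 3p starts were named by their pairing with the listed 5p arms (scores of 33, 32 and 31, next best 29, 30 and 29). RPM, ratios and the exact test follow the study's methods. The ratio has an exact Clopper-Pearson interval, and p-values were adjusted over all arms tested. Ratios, intervals and calls were tested on simulated counts for the 468 arms. The counts were Poisson draws without variation between goats or pools, so only the calculation was checked. With 200 arms changed 4-fold, all 66, 66 and 64 changed arms with at least 100 reads in both libraries were called, and 0 of the 157, 163 and 162 unchanged arms tested.

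The text names every family arm with a read, the 3 arms outside the family nearest to its total among those with at least 1000 reads, marker miRNAs where a result turns on them, and tags that are the most abundant of their arm or start elsewhere with at least 10 reads. The members and lists were chosen with earlier results of these data known. The design foresaw RefSeq hairpin and mature sequences, which were not used here. Analyses used Python 3.11.15, numpy 2.4.6, scipy 1.17.1, matplotlib 3.10.9, R 4.3.3 and edgeR 4.0.16. Alternatives covered the scaling, the tags counted, the filter, the fold limit and an assumed spread.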

Additional observations from a re-analysis of the deposited data

How the results depend on the processing

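No paired analysis was possible because each stage has 1 library, and for the same reason no library could be left out. The alternatives that needed a hairpin sequence or a reference mature sequence were not run. Directions are compared where the interval of the main value excluded 0. The family total in telogen over anagen (main 0.16) reversed to -0.11 under size factors from the median of ratios and to -0.26 under TMM factors. These scalings move all arms alike. Of the single arms in telogen over anagen, miR-200a-3p (main -0.13) turned to 0.18 when scaled to the reads of all arms and to 0.25 without the skeletal muscle list, and miR-200b-3p (main -0.06) to 0.26 and 0.33. miR-200b-5p turned to 0.00 under size factors, its main value being 0.27, and to -0.15 under TMM factors, and miR-429-3p turned to -0.10 under TMM factors. miR-200a-5p turned to 0.57 with tags of 21 nt or longer. In catagen over anagen, miR-200a-3p turned to 0.01 without the skeletal muscle list, miR-200b-5p to -0.09 and miR-200c-3p to -0.10 under size factors, and to -0.13 and -0.14 under TMM factors. In telogen over catagen, miR-200a-3p turned to -0.05 with the most abundant tag of each arm only, an alternative chosen after seeing the data. The cause of the changes with the tags counted was not tested.

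The number of family arms called, 0 of 7 in each pair, became 1 in telogen over anagen under several alternatives. It was miR-200c-3p under both scalings to arm reads, at 1.13 and 1.21, beside 100 and 109 of all 290 arms tested. It was miR-200a-5p under size factors, TMM factors, shifted starts and the most abundant tag only, at -1.40, -1.54, -1.19 and -2.13. There 66, 67, 68 and 72 of the 290 arms were called. At a fold limit of 0.5 on the log2 scale, 1 family arm was called in telogen over anagen and 1 in telogen over catagen. All arms called at that limit numbered 133, 133 and 78 of 292, 290 and 291. The family count stayed 0 with an assumed coefficient of variation of 0.1 or 0.4, where all arms called fell from 80, 70 and 37 to 8, 15 and 2 at 0.4. Called arms numbered 27, 20 and 14 among the arms with at least 100 reads in both libraries, whose number is not given here. They numbered 51 and 53 of 292 in catagen over anagen under size and TMM factors.

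The seed group and cluster shares kept their order across the stages. With tags of 21 nt or longer the seed group share was 60.4% in anagen and 66.7% in telogen, and the cluster share 78.5 and 67.3%. With shifted starts counted the cluster share was 81.8, 77.4 and 71.0%, and the members of the AATACTG seed group made up 61.0, 66.3 and 67.4%. Shifted tags were counted there with their member, although they carry another seed. The latter values are thus shares by member, not by seed. The share of reads that carry the AATACTG seed itself was not calculated with shifted starts. The 5p share of miR-200b was 9.94% in anagen with tags of 21 nt or longer and 8.33, 10.1 and 10.5% with shifted starts. That of miR-200a was 0.0432, 0.120 and 0.0666% with tags of 21 nt or longer, and that of miR-141 was 0 in anagen. Counted by distinct tags, those of 18 to 20 nt were 7.58, 5.45 and 6.33% of miR-200a-3p. Depth limits the 5p arms of miR-200a, miR-200c and miR-141 most.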
